A study of Mus musculus with 6 samples.

Results

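Cytoplasmic ribosomes of the mouse are built from ribosomal RNA and one protein from each of a large family of ribosomal protein genes, and the RNA of that family was compared between WT and Trf2-/- testis. The family was taken from the deposited gene table as every protein-coding gene named Rpsa or named Rps, Rpl or Rplp with a number, with or without the suffixes a, x, y, l and l1, which leaves out the S6 kinases. The rule found 83 of the 26743 genes in the table. They comprise 31 standard proteins of the small (40S) subunit, 43 of the large (60S) subunit, 3 of the P stalk of the large subunit and 6 paralogs, whose names end in l or l1. Total RNA from whole testes of 3 WT and 3 Trf2-/- males, all aged 21 days, had been depleted of ribosomal RNA and sequenced as single-end reads of 50 bases. Trf2-/- mice are homozygous for an inactivated Tbpl1 gene, which encodes the TBP-related factor Trf2, and the sources used here do not give the part of the gene that was removed. At 21 days the first round spermatids have formed in the first wave of spermatogenesis. The methods describe the 3 animals of each genotype as independent biological replicates.

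In flies, TRF2 takes the place of TBP at the promoters of ribosomal protein genes, which begin transcription inside a run of pyrimidines, and in mammals such a run at the start of the mRNA is the TOP motif through which mTORC1 and LARP1 control its translation. The Trf2-/- testis allows the RNA level of the family to be read in a mammal without the factor. The testis also carries its own forms of some ribosomal proteins. The X chromosome is silenced in spermatocytes from pachytene on, and autosomal copies of X-linked ribosomal protein genes, such as Rpl10l and Rpl39l, are used in meiotic and haploid cells.

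Reads counted on genes numbered between 21582123 and 29859347 in the WT mice and between 15187062 and 24530489 in the Trf2-/- mice. Levels are given as CPM, counts scaled to a common library size after TMM normalization, and as CPM per kilobase of gene model where genes are compared with each other. Tbpl1 measured 308, 283 and 294 CPM in WT and 62.9, 64.3 and 55.8 CPM in Trf2-/- mice, with no overlap. A gene was called when the quasi-likelihood test of edgeR gave a Benjamini-Hochberg adjusted p under 0.05 over the 16924 genes tested. Of these genes 11.2% were called higher and 20.2% lower in Trf2-/- testis. With scaling to library size alone, 25.2% were called higher and 15.9% lower. The first principal component held 66.0% of the variance and separated the genotypes, and Trf2-/- mice 1 and 3 lay at opposite ends of the second.

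The RNA of the ribosomal protein genes was modestly higher in Trf2-/- than in WT testis. Of the 83 genes, all of which were tested, 48 were higher, 1 was lower and 34 were not called, beside the background of 11.2% higher and 20.2% lower over all genes. The only gene called lower was Rpl39l, the paralog of the X-linked Rpl39. The log2 fold changes (Trf2-/- minus WT) ran from -0.44 to 0.56 with a median of 0.21, against a median of 0.04 over all genes tested. A positive fold change was fitted for 77 members and a negative one for 6. No member changed 2-fold or more, beside 4.3% of all genes called at least 2-fold lower and 0.609% called at least 2-fold higher.

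**Figure D1:**
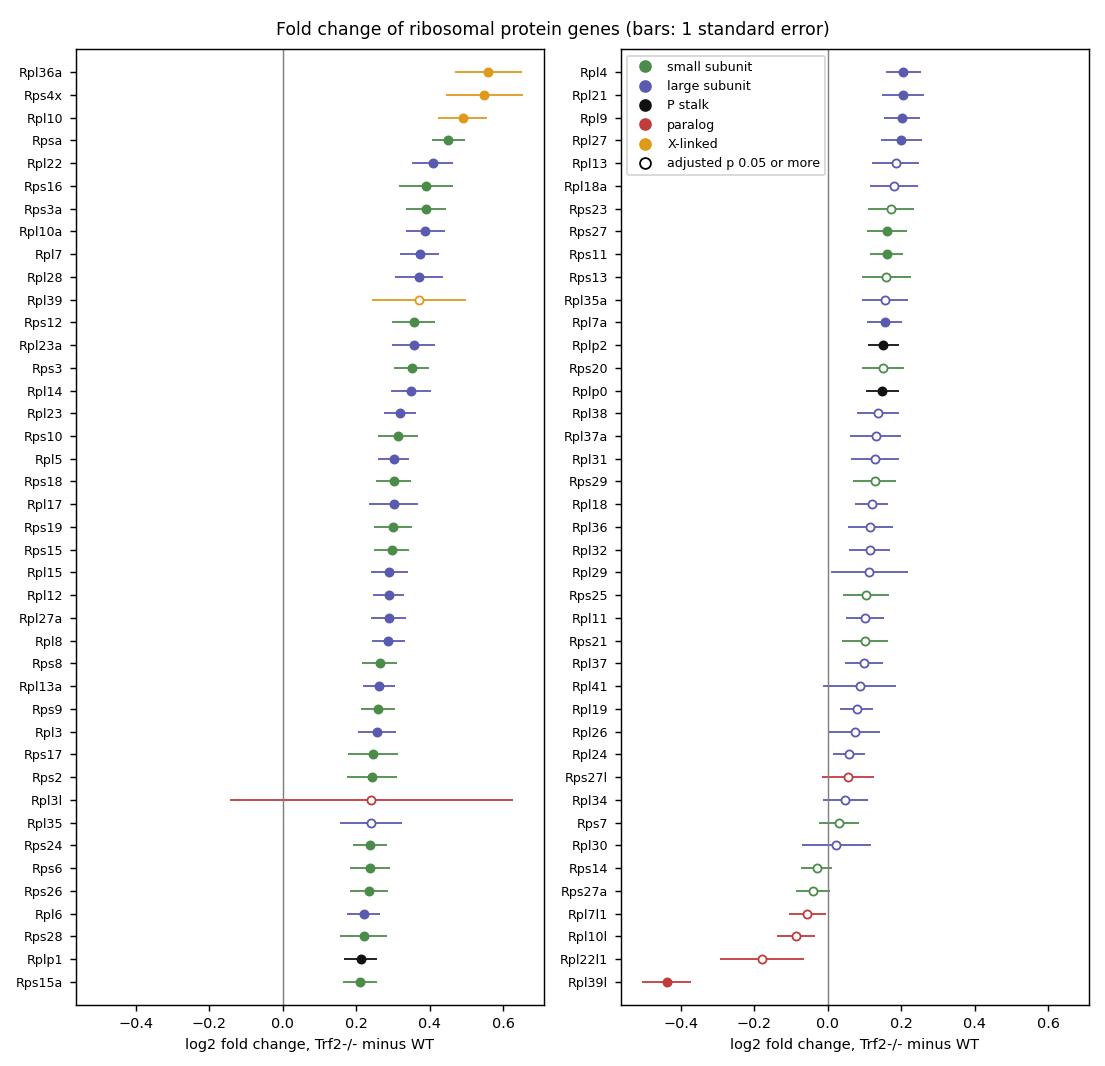
Log2 fold change (horizontal axis, Trf2-/- minus WT) of 82 of the 83 ribosomal protein genes, sorted by size from the top left to the bottom right. Points are edgeR estimates from 3 mice per genotype, bars are 1 standard error, colours mark the subunit, paralogs and X-linked genes, and filled points passed an adjusted p of 0.05. Filled points lie right of 0 except Rpl39l at -0.44, and the X-linked Rpl36a, Rps4x and Rpl10 lead the list with 0.56, 0.55 and 0.49.

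The shift was present in each mouse. Reads on the family made up 0.871%, 0.921% and 0.885% of all counts in the WT mice and 1.11%, 1.09% and 1.08% in the Trf2-/- mice, so the genotypes did not overlap and the mice of a genotype differed little. The median over members of the log2 ratio to the WT mean was -0.02, 0.04 and 0.00 in the WT mice, and 0.24, 0.19 and 0.21 in the Trf2-/- mice. In 56 members every Trf2-/- mouse lay above every WT mouse, where 22.3% of all genes tested did so. In 1 member, Rpl39l, every Trf2-/- mouse lay below, where 26.8% of all genes did so. These are bulk samples, in which fewer cells of a type and less RNA per cell cannot be told apart.

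**Figure D2:**
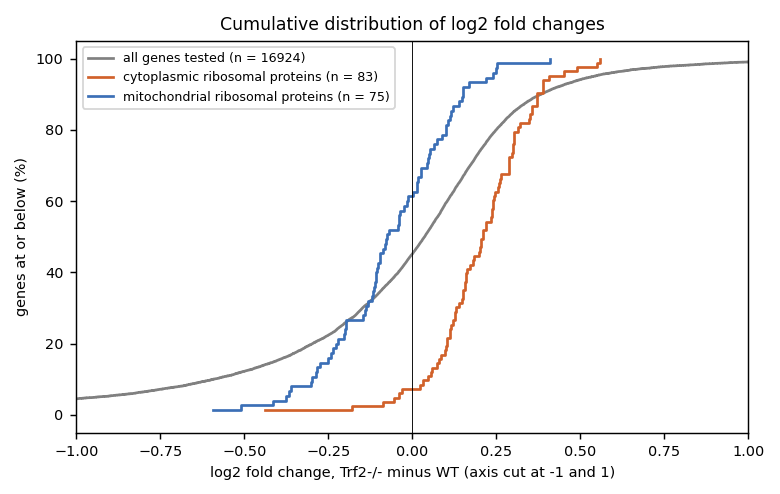
Cumulative share of genes (vertical axis, percent) at or below a log2 fold change (horizontal axis, Trf2-/- minus WT) for all 16924 genes tested, the 83 cytoplasmic ribosomal protein genes and 75 mitochondrial ribosomal protein genes. The line of the cytoplasmic genes lies to the right of 0 over nearly its whole length, with a median of 0.21, whereas the mitochondrial genes have a median of -0.07.

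The small subunit decodes the mRNA. Of its 31 standard proteins 22 were higher, none was lower and 9 were not called, beside 11.2% higher and 20.2% lower over all genes. The median log2 fold change of the 31 was 0.24. Rpsa, the laminin receptor homologue that sits on the outer face of the small subunit, measured 82.9, 85.8 and 84.9 CPM in WT and 119, 113 and 114 CPM in Trf2-/- mice. Every Trf2-/- mouse thus stood well above the WT mice, and the log2 fold change was 0.45 ± 0.05 (SE, n = 3 mice per genotype, edgeR adjusted p = 0.000425). Rps6, the substrate of the S6 kinases, measured 73.7, 82.8 and 78.2 CPM in WT and 93.1, 91.8 and 91.8 CPM in Trf2-/- mice. Its groups did not overlap either, and its log2 fold change was 0.24 ± 0.05 (SE, edgeR adjusted p = 0.0108, or 0.052 without Trf2-/- mouse 1). The call of Rps27 was marginal, with 99.8 ± 5.70 CPM in WT and 112 ± 2.87 CPM in Trf2-/- testis (SD, n = 3, edgeR adjusted p = 0.0496), and it was lost with DESeq2 and when any mouse but Trf2-/- mouse 3 was left out (adjusted p between 0.053 and 0.206).

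Rps27a and Rps14 were the standard proteins with negative estimates, and neither was called. Rps27a, which is made as a fusion with ubiquitin, measured 94.8, 95.8 and 92.2 CPM in WT and 93.0, 93.0 and 88.9 CPM in Trf2-/- mice. The groups overlapped, with a log2 fold change of -0.04 ± 0.05 (SE, edgeR adjusted p = 0.533) whose sign turned with library size or upper quartile scaling. Rps14, singled out after its values were seen, had a log2 fold change of -0.03 ± 0.04 (SE, edgeR adjusted p = 0.621), with 246 ± 3.43 CPM in WT and 241 ± 6.82 CPM in Trf2-/- testis (SD, n = 3).

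The large subunit forms the peptide bond and holds the exit tunnel. Of its 43 standard proteins 23 were higher, none was lower and 20 were not called, beside 11.2% higher and 20.2% lower over all genes. The median log2 fold change of the 43 was 0.21. Rpl22, an RNA-binding protein that many cells can spare, measured 82.2, 88.8 and 87.7 CPM in WT and 120, 114 and 109 CPM in Trf2-/- mice. The lowest Trf2-/- mouse stood above the highest WT mouse, and the log2 fold change was 0.41 ± 0.06 (SE, edgeR adjusted p = 0.00107). Rpl8, which lies close to the peptidyl transferase centre, measured 313, 329 and 314 CPM in WT and 382, 402 and 381 CPM in Trf2-/- mice, again with no overlap, and its log2 fold change was 0.29 ± 0.05 (SE, edgeR adjusted p = 0.00185). Rpl37, whose promoter served in the study as a site to check Trf2 binding, measured 82.2, 88.1 and 85.6 CPM in WT and 94.6, 92.2 and 87.1 CPM in Trf2-/- mice. The third Trf2-/- mouse fell inside the WT range, and the log2 fold change of 0.10 ± 0.05 was not called (SE, edgeR adjusted p = 0.179), although it was with library size alone (adjusted p = 0.019) and upper quartile factors (adjusted p = 0.049).

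The P stalk, which recruits the elongation factors, consists of Rplp0 and copies of Rplp1 and Rplp2. All 3 genes were called higher, where 11.2% of all genes were. Rplp1 measured 195, 206 and 201 CPM in WT and 239, 224 and 233 CPM in Trf2-/- mice, with a log2 fold change of 0.21 ± 0.05 (SE, edgeR adjusted p = 0.00822). Rplp0 rose from 229 ± 3.39 to 254 ± 10.3 CPM (SD, n = 3, log2 fold change 0.15, edgeR adjusted p = 0.0356) and Rplp2 from 102 ± 0.771 to 114 ± 1.94 CPM (log2 fold change 0.15, edgeR adjusted p = 0.0255). In each of the 3 genes every Trf2-/- mouse lay above every WT mouse, where 22.3% of all genes tested did so. The calls of Rplp0 and Rplp2 were lost when 1 mouse was left out, whether any WT mouse or Trf2-/- mouse 1 or 2, with adjusted p between 0.076 and 0.163, and with DESeq2's Wald test (adjusted p = 0.065 and 0.057). The call of Rplp1 was lost without Trf2-/- mouse 1 (adjusted p = 0.053). Of the 15 settings without a changed threshold, the main one included, Rplp0 was called in 6, Rplp2 in 7 and Rplp1 in 14.

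Levels per kilobase differed far more between members than between genotypes. The highest in WT were Rplp1 with 405 ± 11.3, Rpl8 with 369 ± 10.3 and Rpl32 with 329 ± 8.37 CPM per kilobase (SD, n = 3). The lowest were Rpl3l with 0.290 ± 0.130, Rpl29 with 13.8 ± 0.976 and the X-linked Rpl10 with 22.2 ± 1.07 CPM per kilobase. Rpl32 and Rpl29 were not called between genotypes (log2 fold change 0.11 in both). Across the 83 members the fold change had a Spearman correlation of -0.13 with the WT level and of 0.12 with gene length, which is a description over genes that share the same 6 libraries.

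The X-linked Rpl36a, Rps4x and Rpl10 had the largest fold changes of the family and were called higher. The fourth X-linked member, Rpl39, was not called and ranked below several autosomal genes such as Rpsa and Rpl22. The median log2 fold change of the 4 was 0.52, whereas 45 of the 73 autosomal standard genes were called higher with a median of 0.21. Over all 647 X-linked genes tested 22.1% were called higher and 1.24% lower, with a median of 0.20. Rpl10, a late-joining protein of the large subunit at chrX:71516151-71518474 (build NCBIM37), measured 25.6, 28.2 and 26.4 CPM in WT and 39.6, 35.9 and 37.0 CPM in Trf2-/- mice, a log2 fold change of 0.49 ± 0.07 (SE, edgeR adjusted p = 0.00104). Rps4x, a small subunit protein at chrX:99380280-99384733, measured 28.4, 31.7 and 32.0 CPM in WT and 52.6, 40.01 and 41.7 CPM in Trf2-/- mice (log2 fold change 0.55 ± 0.11, SE, edgeR adjusted p = 0.00481). Rpl36a, a large subunit protein at chrX:131120193-131122601, measured 19.9, 22.4 and 20.1 CPM in WT and 34.3, 28.2 and 29.3 CPM in Trf2-/- mice (log2 fold change 0.56 ± 0.09, SE, edgeR adjusted p = 0.00222). In these 3 genes no mouse of one genotype reached the range of the other, and Trf2-/- mouse 1 was the highest.

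Rpl39, the fourth X-linked member, encodes a very short protein of the exit tunnel and lies at chrX:34622515-34625397. It measured 27.6, 29.3 and 28.5 CPM in WT and 43.9, 36.9 and 28.9 CPM in Trf2-/- mice, so that mice 1 and 2 stood above WT and mouse 3 within it. The log2 fold change of 0.37 ± 0.13 was not called (SE, edgeR adjusted p = 0.0551), but was 0.51 without Trf2-/- mouse 3 (adjusted p = 0.00123). It also passed with library size alone, with upper quartile factors, without the filter on low counts and with DESeq2's Wald test, with adjusted p between 0.018 and 0.038.

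Of the 6 paralogs 1 was lower, none was higher and 5 were not called, beside 20.2% lower and 11.2% higher over all genes, so that these few genes do not stand apart from the background, and the median log2 fold change was -0.07. Rpl39l, at chr16:10170319-10175004, is the autosomal counterpart of Rpl39 and is used in spermatocytes and spermatids. It measured 192, 188 and 186 CPM in WT and 147, 146 and 124 CPM in Trf2-/- mice, every Trf2-/- mouse below every WT mouse. The mean fell from 189 ± 3.48 to 139 ± 13.2 CPM (SD, n = 3), a log2 fold change of -0.44 ± 0.07 (SE, edgeR adjusted p = 0.00169), and it was called lower under each alternative setting that kept the 0.05 or the 0.01 threshold without a fold limit.

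The coding sequences of Rpl39l and Rpl39 are shown because they tell how far the reads of the pair can be told apart. Both have 156 bases and differ at 23 of them, marked in capitals, an identity of 85.3%. No stretch of 50 coding bases, the length of a read, is shared by the 2 genes. The sequences were read from the NCBIM37 genome and its annotation.
Rpl39l: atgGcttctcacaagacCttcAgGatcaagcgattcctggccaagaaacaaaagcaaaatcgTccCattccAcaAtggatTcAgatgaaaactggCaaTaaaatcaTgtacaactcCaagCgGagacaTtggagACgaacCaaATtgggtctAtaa
Rpl39: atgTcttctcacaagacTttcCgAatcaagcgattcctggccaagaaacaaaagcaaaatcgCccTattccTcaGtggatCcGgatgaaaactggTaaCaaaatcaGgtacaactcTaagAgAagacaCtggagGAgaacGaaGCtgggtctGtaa

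The other paralogs were not called. Rpl10l, the autosomal counterpart of Rpl10 at chr12:67384368-67385388, is required for meiosis and measured 110, 103 and 102 CPM in WT and 99.4, 102 and 94.5 CPM in Trf2-/- mice. The groups overlapped, and the log2 fold change was -0.09 ± 0.05 (SE, edgeR adjusted p = 0.229). Rpl22l1, the paralog of Rpl22, measured 25.6, 24.1 and 23.8 CPM in WT and 22.7, 24.5 and 17.4 CPM in Trf2-/- mice (log2 fold change -0.18 ± 0.11, SE, edgeR adjusted p = 0.255). Rpl7l1 and Rps27l had log2 fold changes of -0.06 ± 0.05 and 0.05 ± 0.07 (SE). Rpl3l, the form of Rpl3 found in heart and skeletal muscle, had only between 8 and 20 counts in each mouse, or 0.462 ± 0.207 CPM in WT and 0.557 ± 0.123 CPM in Trf2-/- testis (SD, n = 3), too few to read a difference (log2 fold change 0.24 ± 0.39, SE).

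The ratio of a paralog to its parent within each mouse asks how the balance of the pair differed, and it does not depend on scaling between mice. It was computed for 8 pairs, including Rpl36al and Rps4y2 (Rps4l in RefSeq), autosomal counterparts of Rpl36a and Rps4x that the naming rule does not take in. Rpl39l had 6.98, 6.42 and 6.50 times the counts of Rpl39 in WT mice and 3.34, 3.97 and 4.28 times in Trf2-/- mice. Rpl10l had 4.28, 3.67 and 3.85 times the counts of Rpl10 in WT and 2.51, 2.84 and 2.55 times in Trf2-/- mice. In both pairs the genotypes were clearly apart.

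The change of the log2 ratio was -0.79 for Rpl39l, -0.61 for Rpl22l1, -0.58 for Rpl10l, -0.57 for Rpl36al, -0.49 for Rps4y2 and -0.43 for Rpl7l1. In each of these 6 pairs all 3 Trf2-/- mice lay below all WT mice, and the two-sided exact permutation p was 0.1, the smallest that 3 mice against 3 can give (0.133 after Benjamini-Hochberg adjustment over the 8 pairs). The design therefore cannot reach 0.05 for a single pair. For Rps27l the change was -0.11 (exact permutation p = 0.4, adjusted 0.457). For Rpl3l it was 0.07 (exact permutation p = 1). Both genes of a pair enter its ratio. The fitted log2 fold changes of Rpl36al and Rps4y2 themselves were -0.01 ± 0.09 and 0.05 ± 0.05 (SE), while those of their parents were 0.56 and 0.55. Likewise the autosomal parents Rpl7, Rpl22 and Rpl3 had 0.37, 0.41 and 0.26 and were each called higher. Per kilobase, Rpl39l made up 83.0% of the pair in WT and 73.7% in Trf2-/- testis, and Rpl10l 82.2% and 75.6%. The genes of a pair differ in how much of their sequence, cut into windows of read length, also occurs elsewhere in the genome. This share was 44.0% for Rpl39 and 0% for Rpl39l, and 75.5% for Rpl10 and 26.3% for Rpl10l. Where the counting dropped or split such reads, the levels of paralog and parent relative to each other are uncertain.

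**Figure D3:**
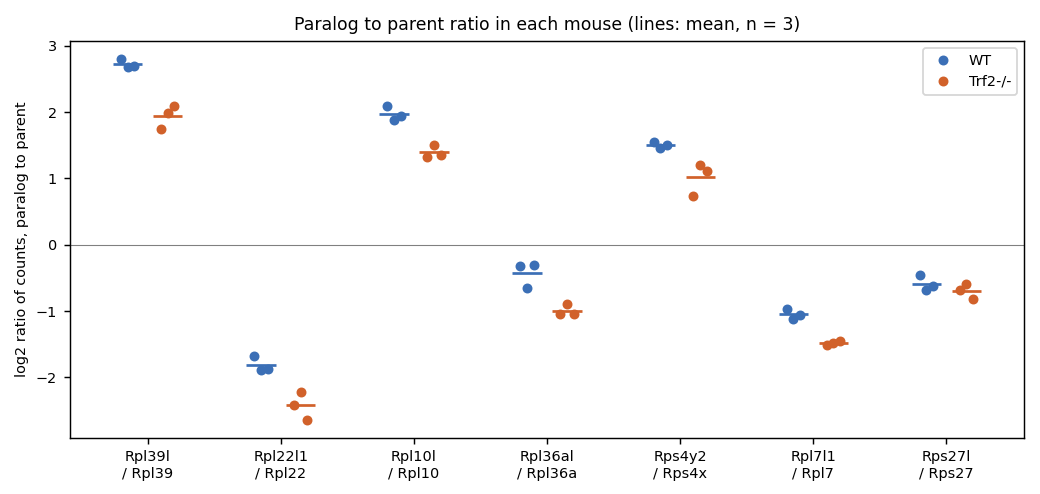
Log2 ratio of the counts of a paralog to those of its parent (vertical axis) in each mouse, for 7 pairs sorted by the size of the difference. Points are mice and lines are means of 3 mice, and Rpl3l with few counts is not drawn. All Trf2-/- points lie below all WT points in the 6 pairs from Rpl39l to Rpl7l1, and the points of Rps27l overlap.

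Markers of several cell types of the testis also differed between genotypes, in both directions. Over all genes tested 20.2% were called lower and 11.2% higher. All 9 markers of pachytene spermatocytes were lower, with a summed level of 5614 to 6077 CPM in WT and 3596 to 4477 CPM in Trf2-/- mice. Of 11 round spermatid markers tested 10 were lower, and their sum was 145 to 154 CPM in WT and 54.5 to 88.6 CPM in Trf2-/- mice. Most of these markers were weak, with a median level of 1.29 CPM in WT and 0.138 CPM in Trf2-/- testis. The latter lies within the 0.105 to 0.190 CPM that a count of 0 allows. With at least 10 counts in every mouse 4 were tested and 3 were lower. Markers of early spermatocytes, among them Sycp1 and Sycp3 of the synaptonemal complex, were higher in 4 and lower in 1 of 9, with sums of 2821 to 2853 against 2911 to 3083 CPM. Of 10 Sertoli cell markers 5 were higher. In all 10 every Trf2-/- mouse lay above every WT mouse, where 22.3% of all genes tested did so. Their sums were 1810 to 1950 CPM in WT and 2113 to 2341 CPM in Trf2-/- mice. With library size alone all 10 Sertoli markers were called higher, beside 25.2% of all genes.

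Macrophage markers were higher in 5 of 9, where 11.2% of all genes were, and their median log2 fold change was 0.60. Their sums were 195 to 219 CPM in WT and 220 to 438 CPM in Trf2-/- mice, the highest in mouse 1. The calls depended on single mice. None of the 9 was called without WT mouse 2, without WT mouse 3 or at an adjusted p of 0.01, and 2 were without WT mouse 1. Without Trf2-/- mouse 1, 2 or 3 the number was 3, 5 and 8. The median log2 fold change with single mice left out lay between 0.37 and 0.82. Of the markers of spermatogonia 1 of 10 was higher, of Leydig cells 1 of 8, of peritubular cells 1 of 6 and of red blood cells none of 5. None was lower in these lists, beside 20.2% of all genes. No marker was at 0 in all mice. The part of these cell types in the levels of the ribosomal protein genes was not tested.

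**Figure D4:**
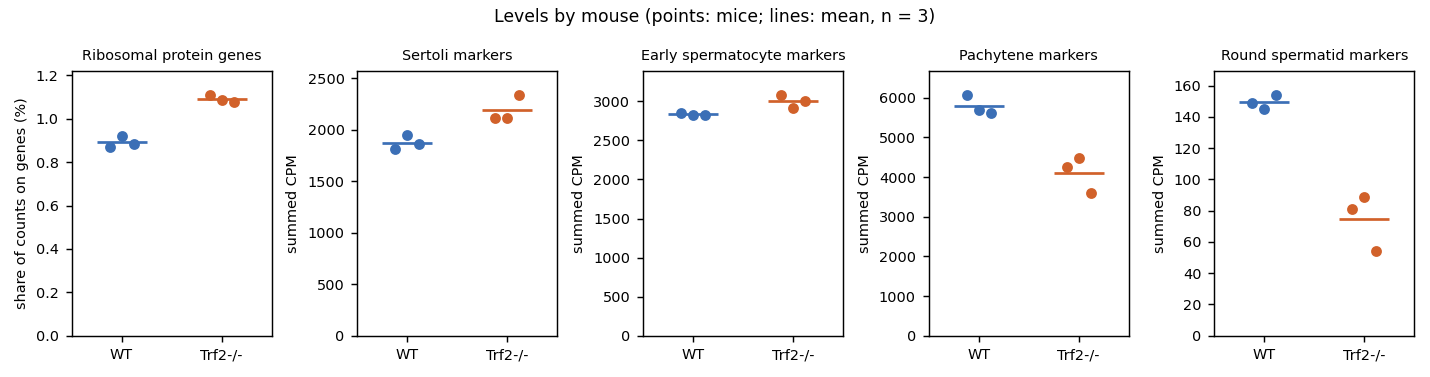
Levels in each mouse on vertical axes that start at 0, with the share of all counts on the ribosomal protein genes in percent on the left and the summed CPM of marker lists in the other panels. Points are mice and lines are means of 3 mice. The ribosomal protein share, Sertoli and early spermatocyte markers were higher in every Trf2-/- mouse than in every WT mouse, and pachytene and round spermatid markers were lower.

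Ribosomal protein genes have many processed copies in the genome, so that part of their reads can match more than 1 place. For the 82 members with a window, the exons of coding transcripts were split into all windows of 50 bases, and a median of 46.9% of the windows of a member also occurred elsewhere in the NCBIM37 genome. The share ran from 0%, as for Rpl39l and Rpl3l, to 99.7% for Rps27, and passed 50% in 39 members. It was 75.5% for Rpl10, 83.8% for Rpl36a, 84.3% for Rps4x and 44.0% for Rpl39, so the levels of these X-linked genes are uncertain where the counting dropped or split such reads. Among members with under 25% of such windows 10 of 18 were called higher, and the median log2 fold change was 0.21. Among those with 75% or more 14 of 19 were, with a median of 0.26. The share called higher over all genes was 11.2%. Reads on the 137 genes named Rpl or Rps with -ps, for pseudogene, in the name amounted to between 0.497% and 0.595% of the reads on the members. Pseudogenes of the family under other names were not counted.

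Promoters were examined for the run of pyrimidines at which flies and mammals start these genes. RefSeq promoter windows of build GRCm38.p6, from 250 bases before to 50 bases after the annotated start, were found for 63 members. A C followed by at least 4 pyrimidines stood exactly at the annotated start in 20.6% of these members and in 3.01% of all 27025 genes of the table, and within 10 bases of it in 61.9% and 34.4%. A run of 8 or more pyrimidines within 50 bases of the start, a criterion added after the data were seen, was present in 82.5% of members and 39.3% of all genes. For genes named above, the longest pyrimidine run within 50 bases of the annotated start is shown in capitals, whatever its length and place. Where a run ends at the last base printed, the window ended there.
Rpl37 (chr15:5116631-5116660, + strand): ggcgggggtgCTTTCTCTTCCggtctcttt
Rps6 (chr4:86857349-86857378, - strand): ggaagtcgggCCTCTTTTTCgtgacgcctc
Rpsa (chr9:120127704-120127733, + strand): gcggaagttctcCCTTTTTgcttagcctgc
Rpl10 (chrX:74270836-74270865, + strand): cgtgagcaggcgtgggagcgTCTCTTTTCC
Rpl36a (chrX:134585672-134585701, + strand): cggctctagCCTCTCTCTTTCCgagctgct
Rpl39 (chrX:37085173-37085202, - strand): gttcttccggtcccggCCTTTCTCTTCTCC
Rps4x (chrX:102189342-102189371, - strand): cgcgcagcctccgaccctaaTTTCTTCgtt
Rpl39l (chr16:10170191-10170220, + strand): aacacccactgCCTCTCCCTagctcccagg
Rpl10l (chr12:66284429-66284458, - strand): tcagtctctatgaTTCCCgcaaggcttgat
Rpl22l1 (chr3:28805499-28805528, + strand): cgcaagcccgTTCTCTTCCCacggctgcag
The longest run was 10 bases in Rps6, 11 in Rpl37, 13 in Rpl36a and at least 14 in Rpl39, and it was 9 bases in Rpl39l, 7 in Rpsa and Rps4x and 5 in Rpl10l. Counted from the annotated start as base 1, with negative numbers before it, the run began at -1 in Rps6 and at 2 in Rpl22l1. Elsewhere the longest run, or the first of equally long runs, lay farther off. It began at 28 in Rpl36a, 29 in Rpl37, 37 in Rpl39 and 41 in Rpl10 and Rps4x. Upstream it began at -26 in Rpl39l, -44 in Rpl10l and -50 in Rpsa. Another run, a C followed by at least 4 pyrimidines, still stood within 10 bases of the start in Rpl36a, Rpl39, Rpl39l and Rpl10l. No such run stood there in Rpl37, Rpl10, Rps4x and Rpsa. These are matches of letters, not measured start sites.

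The fold change differed little between members with and without these letters. The median log2 fold change was 0.24 in the 13 members with the run at the start, 9 of which were called higher, and 0.21 in the 50 without it, 28 of which were called higher. It was 0.22 in the 52 members with a run of 8 or more and 0.22 in the 11 without. TATAAA between 40 and 20 bases before the start, on the coding strand, was present in 1.59% of members, which is Rpl22l1 alone, and in 2.41% of all genes. On either strand GGGCGG, the core of the Sp1 site, was present in 61.9% against 38.2%, CCGGAA, the core of the ETS site, in 55.6% against 16.7%, and AAGATGGC, the core of the YY1 site, in 9.52% against 3.19%. Members with and without GGGCGG had medians of 0.20 and 0.23, those with and without CCGGAA 0.20 and 0.23, and those with and without AAGATGGC 0.19 and 0.22.

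Of the ribosomal proteins named otherwise, Gnb2l1 (Rack1), a scaffold on the head of the small subunit, rose with the family. It measured 306, 318 and 314 CPM in WT and 386, 385 and 361 CPM in Trf2-/- mice, a log2 fold change of 0.27 ± 0.05 (SE, edgeR adjusted p = 0.00252). Fau, which is made as a fusion with a ubiquitin-like protein, had a log2 fold change of 0.09 ± 0.08 (SE) and was not called.

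Genes that act with the ribosome moved in both directions, beside 20.2% called lower and 11.2% called higher over all genes tested. Of 13 subunits of eIF3, the large initiation complex on the small subunit, 6 (46.2%) were lower and none was higher. Their median log2 fold change was -0.13. With library size alone 2 were lower and 1 was higher, beside 15.9% lower and 25.2% higher over all genes. Eif3f had the largest of these decreases (84.1 ± 4.29 to 69.3 ± 2.83 CPM, SD, n = 3, log2 fold change -0.28, edgeR adjusted p = 0.00662), and Eif3c was the most abundant. The 21 names of other initiation factors matched 22 gene entries. Of these entries 4 (18.2%) were lower, led by the cap-binding homologue Eif4e2 (-0.40 ± 0.06, SE), and 5 (22.7%) were higher. Of 8 elongation factors tested 2 (25%) were higher and 1 (12.5%) was lower. Tpt1 and Eef1b2, both encoded by TOP mRNAs, had log2 fold changes of 0.26 and 0.23, whereas Eif5a had -0.17. Eef2, also a TOP mRNA and the most abundant of the list, measured 1493 ± 7.84 CPM in WT and 1508 ± 31.3 CPM in Trf2-/- testis (SD, n = 3) and was not called (log2 fold change 0.01 ± 0.04, SE).

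In the main fit the genes of ribosome building were called at shares near the 20.2% lower and 11.2% higher of all genes tested. The short mTORC1 list was near the background in its lower share and above it in its higher share. Of 40 ribosome biogenesis factors 8 (20%) were lower, led by Wdr12 (-0.44 ± 0.07, SE), and 5 (12.5%) were higher. Their median log2 fold change was 0.06. With library size alone 4 were lower and 15 were higher, beside 15.9% lower and 25.2% higher over all genes. Of 14 genes of RNA polymerase I and ribosomal RNA transcription 2 (14.3%) were lower and 2 (14.3%) were higher. Taf1b, a subunit of the selectivity factor SL1, had the largest change of -0.38 ± 0.05 (SE). The 15 names of the mTORC1 pathway and LARP1 matched 16 gene entries, of which 3 (18.75%) were lower and 3 (18.75%) were higher. Larp1b, a relative of the TOP mRNA-binding LARP1, fell from 356 ± 1.83 to 224 ± 18.0 CPM (SD, n = 3, log2 fold change -0.67, edgeR adjusted p = 0.000314), and Mtor, the kinase, had -0.20 ± 0.04 (SE). With library size alone 2 of the 16 entries were lower and 7 were higher, beside 15.9% lower and 25.2% higher over all genes.

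Mitochondrial ribosomal proteins serve a separate ribosome. Of 75 tested 17 (22.7%) were lower and 3 (4%) were higher, the lower share being near the 20.2% of all genes and the higher share below their 11.2%, and the median log2 fold change was -0.07. With library size alone 11 were lower and 12 were higher, beside 15.9% lower and 25.2% higher over all genes. Their balance thus moved with scaling, as did that of all genes. The cytoplasmic family had 69 higher and 1 lower under that scaling. Mrpl48 had the largest change (28.6 ± 1.36 to 19.0 ± 1.92 CPM, SD, n = 3, log2 fold change -0.59, edgeR adjusted p = 0.00142).

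**Figure D5:**
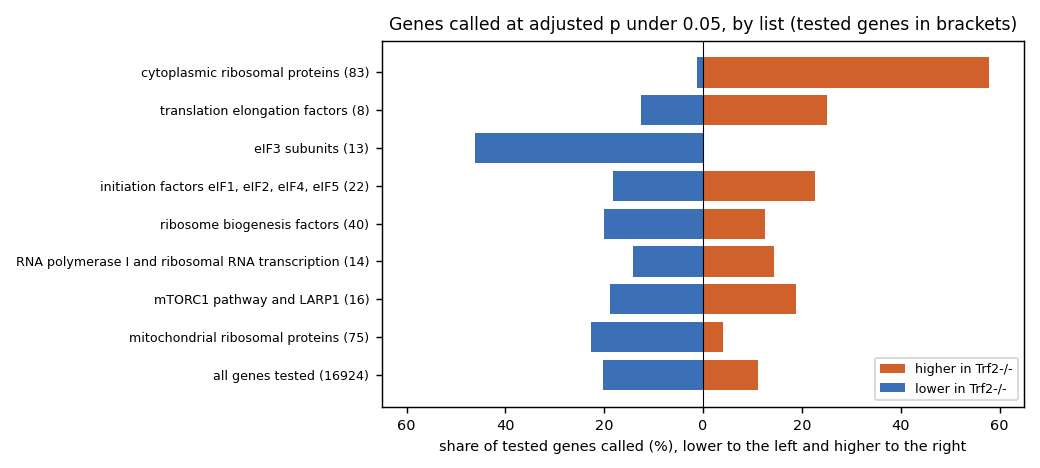
Share of the tested genes of each list that were called lower (bars to the left) or higher (bars to the right) in Trf2-/- testis at an edgeR adjusted p under 0.05, in percent, with the number of tested genes in brackets. The cytoplasmic ribosomal proteins reach 57.8% higher and 1.20% lower, and all genes tested stand at 11.2% higher and 20.2% lower.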

How the data were processed

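Testis RNA of 3 WT and 3 Trf2-/- mice aged 21 days was sequenced. The authors deposited raw read counts per gene for each mouse, together with gene lengths. Per the labels' processing notes they used CASAVA 1.8.2, TopHat2 2.0.10, Bowtie2 2.1.0, HTSeq 0.5.4p3 and DESeq2 1.0.19, with genome build mm9 (NCBIM37). The strand setting of the counter, its handling of reads with several matches and the annotation release are not given in the sources used here, so counts of overlapping genes and of near-identical copies are uncertain. The 12 columns of normalized values per mouse were not used.

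Mice were grouped by the genotype in their labels. The filter filterByExpr kept 16924 genes holding 99.9% of the reads. They were fitted with edgeR 4.0.16 in R 4.3.3 (TMM factors, glmQLFit and glmQLFTest), and p-values were adjusted by the Benjamini-Hochberg method over all genes tested. Standard errors were derived from the fold change and its F statistic. Ratios of paralog to parent used counts plus 0.5 and a two-sided exact permutation test over the 6 mice. A count of 0 allows a level of up to 3 counts, which is 0.105 to 0.190 CPM at these depths, for counting error only. The procedure was tested on simulated counts.

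The members and gene lists were chosen with earlier results of these data known. Named genes were Tbpl1, each paralog and parent, the X-linked members, Rpl37, the P stalk, Rps6, Rpsa, Rps27a, the 5 members with the lowest and the 5 with the highest fold change, the 3 with the highest and the 3 with the lowest WT level per kilobase, and of each other list the called gene with the largest change and the most abundant gene. Further genes are examples chosen after their values were seen. Alternatives were DESeq2 size factors, library size alone, upper quartile factors, TMM without the family, no filter, at least 10 counts in every mouse, the Wald test of DESeq2 1.42.0, a replicate block, leaving out single mice, an adjusted p of 0.01 and a 2-fold limit. Promoter sequences came from RefSeq (GRCm38.p6). Single-gene values of 1 member and of 1 listed gene are not reported here.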

Additional observations from a re-analysis of the deposited data

How the results depend on the processing

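The number of members called higher was 48 and ranged from 33, without Trf2-/- mouse 1, to 60, without Trf2-/- mouse 3, when single mice were left out, and the number called lower stayed at 1. It was 46 with DESeq2 size factors, 48 with TMM factors computed without the family, 48 without the filter, 46 with at least 10 counts in every mouse, 45 with DESeq2's Wald test, 62 with upper quartile factors, 69 with library size alone and 35 at an adjusted p of 0.01, each with 1 called lower. With a 2-fold limit both counts were 0. Of all genes tested, 11.2% were called higher in the main fit, 19.4% with upper quartile factors and 25.2% with library size alone. The larger counts of 62 and 69 thus came with a larger share over all genes. That share was 2.84% at an adjusted p of 0.01, 6.86% without Trf2-/- mouse 1 and 10.99% without Trf2-/- mouse 3. Of the 48 members, 33 were called in all 14 alternatives without a changed threshold and 48 were above 0 in all of them. The median log2 fold change moved from 0.21 to 0.30 with library size alone and to 0.27 with upper quartile factors, which place the median of all genes at 0.13 and 0.10 instead of 0.04, and it lay between 0.18 and 0.23 with single mice left out. The numbers of the mice do not pair them (correlations of the deviations of same-numbered mice -0.06, -0.08 and -0.08), and with the replicate block 43 members were called higher and 1 lower. The ratio changes under the block equal those without it by construction, so they are no check. The exact sign-flip p was 0.25 or more, and 0.25 is the smallest that 3 same-numbered pairs can give.

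Small estimates turned sign and were called under no setting. With library size alone the log2 fold change was 0.0075 for Rpl10l, 0.039 for Rpl7l1, 0.054 for Rps27a and 0.083 for Rpl36al, and with upper quartile factors 0.0035 for Rpl7l1, 0.019 for Rps27a and 0.047 for Rpl36al. With single mice left out it ranged from -0.089 to 0.043 for Rpl36al (0.0074 without WT mouse 1, 0.019 without WT mouse 3 and 0.043 without Trf2-/- mouse 3) and reached -0.0049 for Rps27l without Trf2-/- mouse 2. The log2 ratio change of Rpl3l to Rpl3, which rests on few counts, ranged from -0.19 to 0.42 (-0.19 without WT mouse 2, -0.0055 without WT mouse 3 and -0.027 without Trf2-/- mouse 1). The causes of these differences were not tested. Depth limits only Rpl3l, since the other 82 members had at least 100 counts in every mouse.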
